A study of Mus musculus with 6 samples.

Results

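The SLC25 family of mitochondrial carriers, together with the uncoupling proteins that belong to it, was described in primary mouse hepatocytes depleted of retinol saturase (RetSat). The members were every gene whose annotated symbol was Slc25a followed by digits, plus Ucp1, Ucp2 and Ucp3, and each gene was represented by its brightest probe set over all 6 arrays. The rule used symbols and no comparison of the groups. It found 48 genes among the 19938 genes measured, 46 of them carriers named Slc25a and the others Ucp1 and Ucp3. Ucp2 had no probe set with a single symbol and was not analysed here.

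Carriers of this family sit mostly in the inner mitochondrial membrane, where each moves a small set of metabolites, nucleotides, ions or cofactors between the matrix and the cytosol, usually in exchange for another. In hepatocytes they link the matrix to the cytosol for fatty acid oxidation, gluconeogenesis, lipogenesis and the urea cycle. Among the uncoupling proteins, Ucp1 is the heat-producing protein of brown fat, which lets protons back into the matrix.

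Hepatocytes came from a male wild-type C57BL/6J mouse aged 10 weeks per the labels. The study's methods give a range of younger ages. The cells were transfected overnight with 1 nmol of a non-targeting siRNA (siControl) or of an siRNA against RetSat (siRetSat) and kept in medium with 25 mM glucose, and RNA was isolated 48 h later. Each group held 3 independent transfections of cells from 1 mouse, each on an Affymetrix Mouse Gene 1.0 ST array. Each p-value here therefore rests on the spread of transfections and not of animals, and no second siRNA was among the samples. In the same arrays Retsat fell from 6.95 to 4.75 on the log2 scale, a log2 fold change of -2.20 (SE 0.105, adjusted p = 0.000112, limma).

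Across all genes the limma test called 710 of 19938, or 3.56%, at an adjusted p under 0.05. The number of arrays limits the precision. The arrays numbered 1 stood apart from the others in both groups, and the first component of the deviations from the group means held 61.5% of their variance. Hepatocyte markers were measured for 11 of 12 listed genes, and their summed level was 14.9 in each siControl array and 14.8 in each siRetSat array on the log2 scale. Albumin (Alb) was at 12.98 in siControl and 13.05 in siRetSat cells and transferrin (Trf) at 12.84 and 12.67. Ahsg, Cps1 and Fgb of that list fell by 0.52, 0.82 and 0.42 on the log2 scale. The median log2 fold change of the list was -0.10.

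Of the 48 carriers, 8 (16.7%) changed with RetSat depletion, against the 3.56% of all genes. Slc25a30, Slc25a23, Slc25a20, Slc25a33 and Slc25a10 fell. Slc25a37, Slc25a17 and Slc25a46 rose. The 5 that fell were 10.4% of the carriers, against 1.66% of all genes that fell, and the 3 that rose were 6.25%, against 1.91% that rose. The log2 fold changes of the family ran from -0.77 to 0.64 with a median of 0.01 beside 0.00 over all genes. The median size of the change, without its sign, was 0.182 on the log2 scale for the carriers and 0.1 for all genes.

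Promoter sequences of the carriers that lead the account, the dicarboxylate carrier Slc25a10, the carnitine-acylcarnitine carrier Slc25a20, the carrier with the smallest adjusted p, Slc25a30, and Slc25a33, which alone held an E-box among the 6 called carriers with a window, are shown here 5′ to 3′ on the strand of the gene (RefSeq, GRCm38.p6). Each window runs from 250 bases before an annotated transcript start to 50 bases after it, so its last part lies in the first exon. The Slc25a10 window is chr11:120491587-120491886 on the plus strand, that of Slc25a20 is chr9:108661886-108662185 on the plus strand, that of Slc25a30 is chr14:75786988-75787287 on the minus strand and that of Slc25a33 is chr4:149774218-149774517 on the minus strand. Capitals mark matches on either strand to the E-box CACGTG, the nuclear receptor element AGGTCA, the CCAAT box and the GC box GGGCGG.
Slc25a10: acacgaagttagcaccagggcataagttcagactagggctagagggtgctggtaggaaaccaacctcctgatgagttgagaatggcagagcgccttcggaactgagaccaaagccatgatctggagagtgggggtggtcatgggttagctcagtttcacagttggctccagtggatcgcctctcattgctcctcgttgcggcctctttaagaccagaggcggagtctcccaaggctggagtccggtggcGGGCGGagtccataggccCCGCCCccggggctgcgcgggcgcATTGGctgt
Slc25a20: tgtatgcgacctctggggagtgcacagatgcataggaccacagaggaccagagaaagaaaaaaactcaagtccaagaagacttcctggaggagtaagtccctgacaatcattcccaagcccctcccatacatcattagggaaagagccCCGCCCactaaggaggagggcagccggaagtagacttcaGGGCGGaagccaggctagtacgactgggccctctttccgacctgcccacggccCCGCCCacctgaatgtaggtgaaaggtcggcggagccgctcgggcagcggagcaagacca
Slc25a30: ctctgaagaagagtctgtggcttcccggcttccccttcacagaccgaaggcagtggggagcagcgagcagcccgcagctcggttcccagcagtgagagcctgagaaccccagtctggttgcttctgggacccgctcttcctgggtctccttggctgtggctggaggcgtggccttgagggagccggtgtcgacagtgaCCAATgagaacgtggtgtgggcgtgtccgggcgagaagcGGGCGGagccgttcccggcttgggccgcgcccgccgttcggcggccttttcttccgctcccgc
Slc25a33: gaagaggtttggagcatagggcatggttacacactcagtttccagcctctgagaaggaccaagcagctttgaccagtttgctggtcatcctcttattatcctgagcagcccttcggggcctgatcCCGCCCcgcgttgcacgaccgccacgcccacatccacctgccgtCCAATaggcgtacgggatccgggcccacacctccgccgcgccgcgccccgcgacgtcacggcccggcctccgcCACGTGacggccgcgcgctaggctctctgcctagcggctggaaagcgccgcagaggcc

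The sequence table held a window for 38 of the 48 carriers and 48 windows for them in all. The E-box CACGTG, the core of the elements that the glucose-responsive factor ChREBP and other basic helix-loop-helix proteins bind, was present in 7 carriers and in 16.7% of their windows, against 7.15% of all 32851 windows. Of the 6 called carriers with a window, Slc25a33 held one. The element AGGTCA, on which nuclear receptors bind, was present in 6 carriers, none of which was called, and in 12.5% of their windows against 16.3% of all. The CCAAT box was present in 19 carriers and in 45.8% of their windows against 37.4% of all, and the GC box GGGCGG in 30 carriers and in 79.2% against 35.7%. Each of the 6 called carriers with a window held a GC box. These counts describe letters in a short window and not binding. None of these motifs contains another, and windows of the same gene can overlap.

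**Figure D1:**
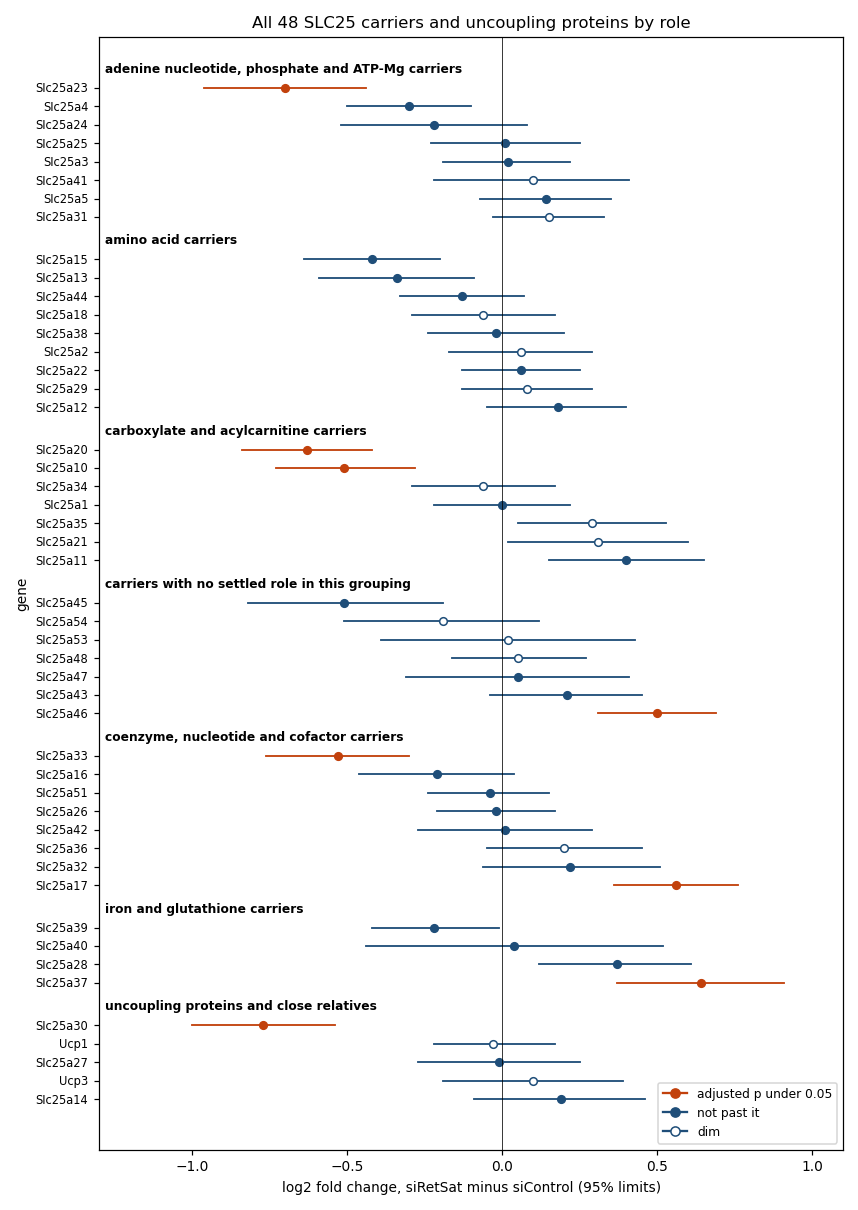
Log2 fold change (siRetSat minus siControl) of all 48 carriers and uncoupling proteins, grouped by what they carry, with 95% limits from limma. Orange points passed an adjusted p of 0.05, filled blue points did not, and open points are genes whose mean over the 6 arrays lay under the 40th percentile of all genes (4.33). The 8 orange points lie on both sides of 0 and in 6 of the 7 groups.

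Among carriers of carboxylates and acylcarnitines, 2 of 7 were called lower and none higher, against 1.66% and 1.91% of all genes. Slc25a20, which brings acylcarnitines into the matrix for fatty acid oxidation, was at 9.50, 9.41 and 9.52 in siControl arrays 1, 2 and 3 and at 8.89, 8.73 and 8.92 in siRetSat arrays 1, 2 and 3 on the log2 scale. The highest siRetSat value lay below the lowest siControl value. The means were 9.48 ± 0.06 and 8.85 ± 0.10 (SD, n = 3), a log2 fold change of -0.63 (SE 0.0913, adjusted p = 0.01) that left 64.6% of the control level. Slc25a10, which exchanges malate and succinate for phosphate, was at 7.32, 7.13 and 7.12 in siControl arrays and at 6.65, 6.78 and 6.62 in siRetSat arrays. The groups did not overlap here either. Its means were 7.19 ± 0.11 and 6.68 ± 0.09 (SD, n = 3), with a log2 fold change of -0.51 (SE 0.0965, adjusted p = 0.0294), or 70.4% of the control level.

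The citrate carrier Slc25a1, which supplies cytosolic citrate for lipogenesis, did not pass the test. It was at 9.34, 9.46 and 9.52 in siControl arrays and at 9.35, 9.55 and 9.42 in siRetSat arrays, and its log2 fold change was 0.00 with 95% limits of -0.22 to 0.22. These limits leave out changes of the size seen for Slc25a20. The oxoglutarate carrier Slc25a11, a part of the malate-aspartate shuttle, was at 8.17, 8.14 and 8.30 in siControl and 8.77, 8.44 and 8.59 in siRetSat arrays, a log2 difference of 0.40 that did not pass (adjusted p = 0.106). The oxodicarboxylate carrier Slc25a21 (0.31, adjusted p = 0.313), Slc25a35 (0.29, adjusted p = 0.229) and Slc25a34 (-0.06) were dim, with means of 4.19 or lower in both groups.

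The uncoupling proteins and their nearest relatives held the gene with the smallest adjusted p of the family. Slc25a30, a relative of the uncoupling proteins first described in kidney, was at 9.75, 9.96 and 9.95 in siControl arrays 1, 2 and 3 and at 9.02, 9.22 and 9.10 in siRetSat arrays 1, 2 and 3. Every siRetSat value was lower than every siControl value. The means were 9.89 ± 0.12 and 9.11 ± 0.10 (SD, n = 3), and the log2 fold change of -0.77 (SE 0.1, adjusted p = 0.00585) left 58.5% of the control level. The other 4 measured genes of this group did not pass the test. Slc25a14 differed by 0.19 and Slc25a27 by -0.01 on the log2 scale. Ucp1 was dim, at 3.43 ± 0.03 in siControl and 3.41 ± 0.09 in siRetSat cells, and so was the muscle form Ucp3, at 3.30 ± 0.17 and 3.40 ± 0.18 (SD, n = 3). The 6 listed markers of brown fat and muscle were called in no case (limma; 0 also at an unadjusted p under 0.05 and 0 by the methods' t-test after adjustment), with Cidea at 5.30 and 5.33 and Mb at 4.89 and 4.73.

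Carriers of adenine nucleotides and phosphate supply oxidative phosphorylation and the matrix adenine nucleotide pool. Of 8, 1 was called lower and none higher, against 1.66% and 1.91% of all genes. Slc25a23, a calcium-regulated carrier that exchanges ATP-Mg for phosphate, was at 6.96, 7.26 and 7.31 in siControl arrays and at 6.38, 6.55 and 6.50 in siRetSat arrays. Array 1 was the lowest of its group on both sides, and the groups did not overlap. The log2 fold change was -0.70 (SE 0.115, adjusted p = 0.0171), or 61.6% of the control level. The other calcium-regulated ATP-Mg carriers gave log2 differences of -0.22 for Slc25a24 and 0.01 for Slc25a25, neither past the test, and the related Slc25a41 was dim with 0.10.

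The carriers that serve ATP synthesis directly did not pass the test. Slc25a4, an ADP/ATP exchanger, was at 10.78, 10.89 and 10.77 in siControl arrays and 10.49, 10.60 and 10.46 in siRetSat arrays, a difference of -0.30 (adjusted p = 0.136). Slc25a5, another ADP/ATP exchanger, was at 10.89, 10.81 and 10.70 against 11.03, 10.92 and 10.87, a difference of 0.14. Its 3 probe sets gave 0.14, 0.12 and 0.13. The phosphate carrier Slc25a3 was at 10.29, 10.19 and 10.32 in siControl and 10.19, 10.32 and 10.34 in siRetSat arrays, with a log2 difference of 0.02 (95% limits -0.19 to 0.22). The testis form Slc25a31 was dim, with 0.15.

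None of the 9 carriers of amino acids was called by limma, with 2 at an unadjusted p under 0.05 and 0 by the methods' t-test after adjustment. The mitochondrial ornithine carrier Slc25a15, which serves the urea cycle, came closest to the threshold. It was at 7.83, 7.93 and 7.92 in siControl arrays and at 7.53, 7.34 and 7.55 in siRetSat arrays, a log2 difference of -0.42 (SE 0.0936, adjusted p = 0.0529). The groups did not overlap. With dim genes left out of the fit, 964 of 11965 genes (8.06%) and 9 of the 34 carriers kept were called, the added one being Slc25a15. The aspartate-glutamate carrier of liver, Slc25a13, was at 9.23, 9.35 and 9.08 against 9.01, 8.77 and 8.86, a difference of -0.34 (adjusted p = 0.164), while its counterpart Slc25a12 differed by 0.18. The other members of this group, the branched-chain amino acid carrier Slc25a44, the glutamate carriers Slc25a22 and Slc25a18, the glycine carrier Slc25a38, the basic amino acid carrier Slc25a29 and the ornithine carrier Slc25a2, ranged from -0.13 to 0.08.

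Carriers of coenzymes and nucleotides went both ways, with 1 of 8 called higher and 1 lower, against 1.91% and 1.66% of all genes. Slc25a17, the family's peroxisomal member, which carries coenzyme A and related cofactors, was at 9.21, 9.29 and 9.37 in siControl arrays and at 9.78, 9.89 and 9.88 in siRetSat arrays. The log2 fold change was 0.56 (SE 0.0878, adjusted p = 0.0144), or 147% of the control level, and the groups did not overlap. Slc25a33, a pyrimidine nucleotide carrier tied to mitochondrial DNA and RNA synthesis, was at 7.63, 7.65 and 7.70 in siControl arrays and at 7.01, 7.09 and 7.29 in siRetSat arrays. It fell by 0.53 on the log2 scale (SE 0.0984, adjusted p = 0.0263) to 69.3% of the control level. The other pyrimidine nucleotide carrier, Slc25a36, was dim and differed by 0.20, with 0.33 at its second probe set, also dim. At the brighter probe set the groups overlapped, and at the second they did not.

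The remaining carriers of this group did not pass the test. Slc25a32, which carries folate and flavin, differed by 0.22, and Slc25a16 by -0.21. Slc25a51, which carries NAD, the S-adenosylmethionine carrier Slc25a26 and the coenzyme A carrier Slc25a42 lay between -0.04 and 0.01.

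Of the 4 carriers of iron and glutathione, 1 was called higher, against 1.91% of all genes. Slc25a37, mitoferrin-1, which brings iron into the matrix, was at 4.83, 4.76 and 5.11 in siControl arrays and at 5.40, 5.60 and 5.62 in siRetSat arrays. The signal was low and the groups did not overlap. The log2 fold change of 0.64 (SE 0.119, adjusted p = 0.0262) corresponds to 156% of the control level. Mitoferrin-2, Slc25a28, was at 6.80, 6.60 and 6.61 against 7.18, 7.03 and 6.90, a log2 difference of 0.37 that did not pass (adjusted p = 0.13). The glutathione carrier Slc25a39 was at 10.72, 10.86 and 10.73 against 10.65, 10.51 and 10.50, a difference of -0.22 (adjusted p = 0.319). Its relative Slc25a40 gave 0.04 at the brighter probe set. Its other probe set gave -0.40 but was dim, with a mean of 3.90 over the 6 arrays and overlapping groups.

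Among the 7 carriers left without a role here, 1 was called higher, against 1.91% of all genes. Slc25a46, a protein of the outer membrane that takes part in shaping mitochondria, was at 8.14, 8.18 and 8.04 in siControl arrays and at 8.62 in each siRetSat array. The log2 fold change was 0.50 (SE 0.0832, adjusted p = 0.018), or 141% of the control level. Slc25a45 was at 7.12, 7.40 and 7.38 against 6.93, 6.53 and 6.92, a difference of -0.51 with a wide spread (SE 0.136, adjusted p = 0.102). Slc25a43 (0.21), the liver carrier Slc25a47 (0.05), Slc25a48 (0.05), Slc25a53 (0.02) and Slc25a54 (-0.19) did not pass the test.

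**Figure D2:**
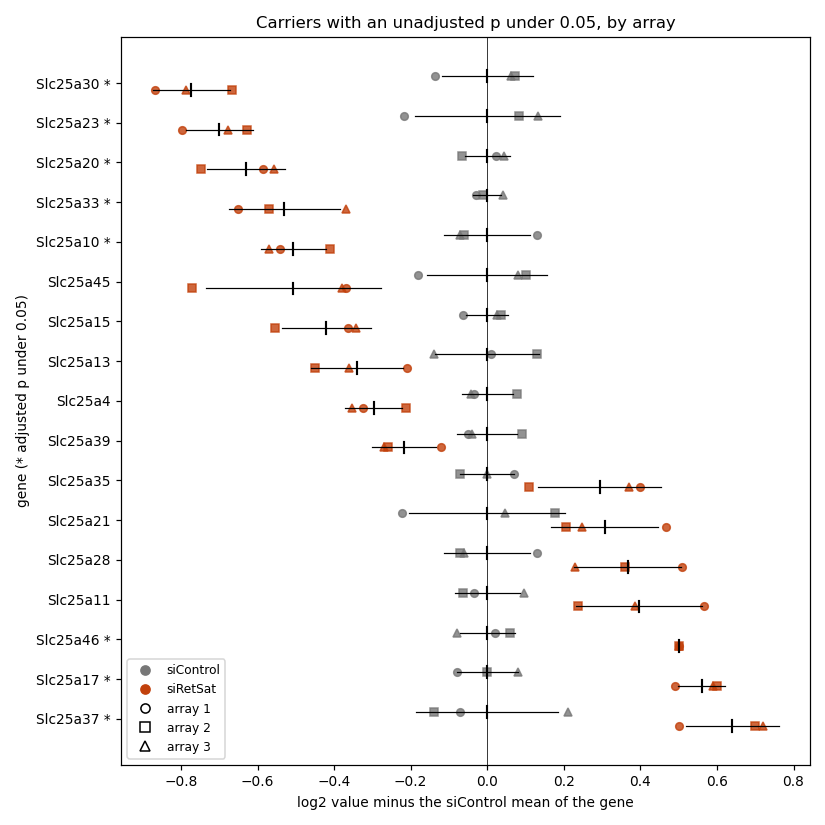
Log2 value of each array minus the gene's siControl mean, for the 17 carriers with an unadjusted p under 0.05. Grey points are siControl and orange points siRetSat, the shape gives the array number, the tick is the group mean and the bar its SD (n = 3), and an asterisk marks an adjusted p under 0.05. The groups do not overlap in any of the 17 genes, marked or not, and Slc25a45 and Slc25a21 show wide spreads. The 17 genes were chosen by p on these same arrays, so the absence of overlap follows largely from that choice. Of all genes, not chosen by p, 9.33% were higher and 10.1% lower in siRetSat arrays without overlap.

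At an unadjusted p under 0.05, 17 carriers (35.4%) passed, against 14.5% of all genes. With the study's cutoffs on p and on fold change (at least 0.32 on the log2 scale), applied to limma's unadjusted p in place of the p of the test that the methods name, 13 carriers passed, or 27.1% against 9.05% of all genes. With the methods' t-test at the same cutoffs, 13 carriers and 7.15% of all genes passed. Of the 13 by limma, 5 were higher (10.4% against 4.47%) and 8 lower (16.7% against 4.58%). The added genes were Slc25a11 and Slc25a28 on the higher side and Slc25a13, Slc25a15 and Slc25a45 on the lower side. The groups did not overlap for 10 carriers that were higher in siRetSat cells (20.8%, against 9.33% of all genes) and for 11 that were lower (22.9%, against 10.1%).

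A two-sided exact permutation test over the 6 arrays gave p = 0.1 for each of the 8 called carriers, the smallest value that 3 arrays against 3 allow. The 14 dim carriers, with values from 2.58 to 4.51, included none of the limma calls, while 2 of them, Slc25a35 and Slc25a21, had an unadjusted p under 0.05 and none was called by the methods' t-test after adjustment. Their log2 differences ran from -0.19 to 0.31.

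The calls differed in how far they rested on single arrays. Slc25a30 passed in each of the 6 fits that leave out 1 array, with adjusted p from 0.0111 to 0.0479. Slc25a20 and Slc25a17 each passed in 3 such fits (0.0175 to 0.0635 and 0.019 to 0.0865). Slc25a20 lost its call without siControl 2, siControl 3 or siRetSat 2, and Slc25a17 without siControl 2, siRetSat 2 or siRetSat 3. Slc25a23 and Slc25a46 passed only without siControl 1 or siRetSat 1, with ranges of 0.0116 to 0.1 and 0.0337 to 0.0947, and Slc25a37 only without siControl 3 or siRetSat 1 (0.0271 to 0.134). Slc25a33 passed only without siRetSat 3 (0.0343 to 0.132), and Slc25a10 in no such fit (0.0587 to 0.111). The direction of these 8 genes was the same in each of the 18 other settings tried.

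With both arrays numbered 1 left out, a setting chosen after seeing the data, 822 of all genes (4.12%) and 6 carriers were called, and Slc25a33 and Slc25a10 were lost. Without both arrays numbered 2, or both numbered 3, no carrier was called by limma, and 0.0752% and 0.557% of all genes were. In these fits 13 carriers each had an unadjusted p under 0.05, against 7.02% and 9.29% of all genes. The balance of calls was 3 higher and 5 lower as deposited and with another quantile normalization, 0 higher and 3 lower with the array medians set equal, and 2 higher and 2 lower after subtraction of a background. With the medians set equal the log2 fold changes of the 3 higher carriers moved little, to 0.54 for Slc25a17, 0.62 for Slc25a37 and 0.48 for Slc25a46.

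**Figure D3:**
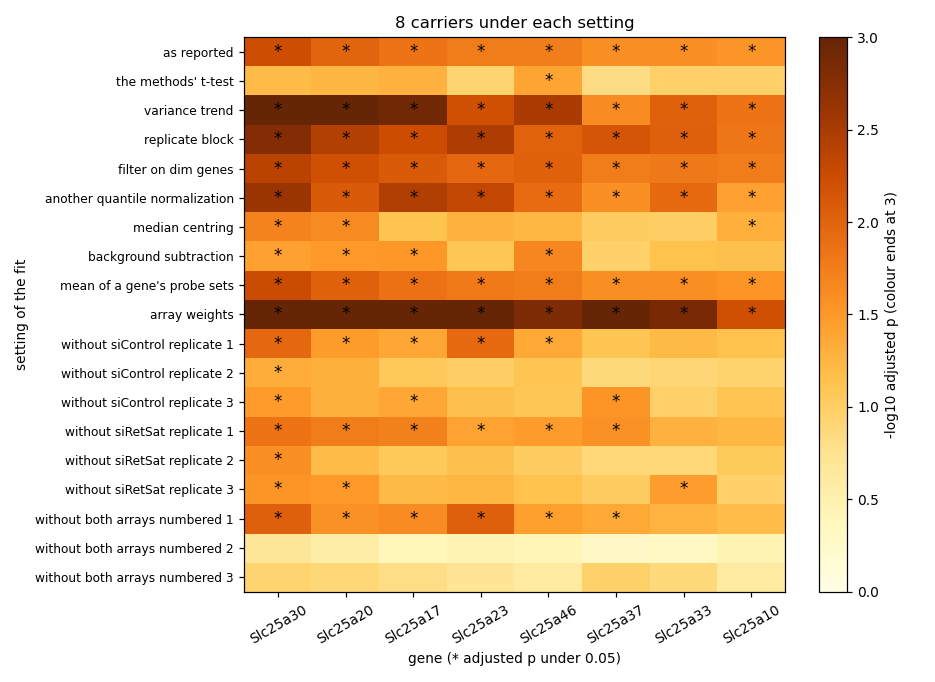
Adjusted p, as -log10, of the 8 called carriers under each setting of the fit, with darker colours for smaller p (the colour ends at 3) and an asterisk for an adjusted p under 0.05. Slc25a30 carries an asterisk in every setting except the methods' t-test and the fits without both arrays numbered 2 or both numbered 3, and Slc25a10 carries none where a single array is left out.

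Closely related carriers were compared within each array, as the difference of their log2 values, so that a change of this difference shows unequal change and not which gene moved. Of the 9 pairs, 5 hold a carrier called above, so their changes restate that call in part. The smallest exact permutation p, 0.1, became 0.129 after adjustment over the pairs, so no pair could pass. The difference Slc25a30 minus Slc25a14 changed by -0.96, with an SD over 3 arrays of 0.15 in siControl and 0.29 in siRetSat cells. Slc25a23 minus Slc25a25 changed by -0.71 and Slc25a23 minus Slc25a24 by -0.48. Slc25a33 minus Slc25a36 changed by -0.73. For the ADP/ATP exchangers, Slc25a4 minus Slc25a5 changed by -0.44, with an SD of 0.11 in both groups.

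Slc25a12 minus Slc25a13, the aspartate-glutamate carriers, changed by 0.52, and Slc25a15 minus Slc25a2, the ornithine carriers, by -0.48. The mitoferrins, Slc25a37 minus Slc25a28, changed by 0.27 with overlapping groups (exact permutation p = 0.2), and Slc25a39 minus Slc25a40 by -0.26 with overlapping groups (exact permutation p = 0.5). Slc25a36 and Slc25a2 were dim, so the pairs that hold them rest mostly on the other gene.

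**Figure D4:**
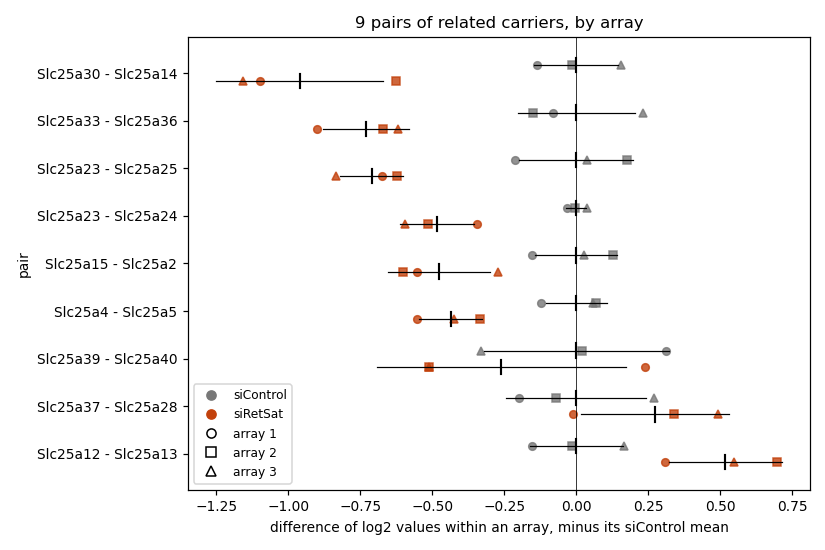
Difference of log2 values within an array for 9 pairs of related carriers, minus the siControl mean of the pair. Grey points are siControl, orange points siRetSat, shapes give the array number, ticks are means and bars SD (n = 3). The groups overlap in the Slc25a39 and Slc25a40 pair and in the Slc25a37 and Slc25a28 pair.

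Genes that work beside the carriers were given from fixed lists, each count of calls to be read against the 3.56% of all genes. Counts at an unadjusted p under 0.05 are to be read against 14.5%, and counts by the methods' t-test after adjustment against 0.983%. The same shares apply to the cell type markers. Of 10 genes of the carnitine shuttle and acyl-CoA entry, the pathway of Slc25a20, 1 was called lower and none higher. Cpt1a, which forms the acylcarnitines at the outer membrane, was at 9.02, 9.24 and 9.20 in siControl and 8.48, 8.67 and 8.76 in siRetSat arrays, a log2 fold change of -0.52 (adjusted p = 0.0416). Crat gave -0.19 (adjusted p = 0.388), and the median of the list was -0.06. Of 6 genes of the malate-aspartate and glycerol phosphate shuttles, Gpd2, the mitochondrial glycerol phosphate dehydrogenase, fell by 0.74 on the log2 scale (adjusted p = 0.0103), Mdh1 gave 0.22 (adjusted p = 0.269) and the median was -0.03. Of 6 genes of citrate export and use, none was called by limma, with 1 at an unadjusted p under 0.05 and 0 by the methods' t-test after adjustment. Idh1 gave 0.24 (adjusted p = 0.297) and Acly, which splits citrate in the cytosol, -0.16 (adjusted p = 0.443), with a median of -0.10.

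Of 6 genes of the ornithine and urea cycle, beside Slc25a15, 1 was dim, and the median log2 fold change was 0.12. Cps1, the enzyme that makes carbamoyl phosphate in the matrix, fell by 0.82 on the log2 scale (adjusted p = 0.0291). Asl gave 0.20 (adjusted p = 0.31). The dim gene was Otc, at 3.05 in siControl and 3.28 in siRetSat cells, and Ass1 was listed but not analysed. Of 15 genes that import carriers into the inner membrane, Tomm6 fell by 0.42 (adjusted p = 0.0385), Timm29 gave -0.41 (adjusted p = 0.0858) and the median was -0.05. Of 14 transporters of the inner membrane outside the SLC25 symbols, 1 was dim, and the median was -0.07. The serine carrier Sfxn1 fell by 0.55 (adjusted p = 0.0178), and the calcium channel subunit Mcu gave -0.34 (adjusted p = 0.0886).

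None of 16 ATP synthase subunits was called by limma, with 3 at an unadjusted p under 0.05 and 0 by the methods' t-test after adjustment. Atp5b gave -0.25 (adjusted p = 0.192), Atp5l 0.36 (adjusted p = 0.203), and the median was 0.08. None of 17 regulators of mitochondrial genes was called either, with 6 at an unadjusted p under 0.05 and 0 by the methods' t-test after adjustment. Tfb2m, a factor of mitochondrial transcription, gave -0.47 (adjusted p = 0.114), Pprc1 -0.25 (adjusted p = 0.196), and the median was -0.01.

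The partner calls also rested on single arrays. Of the 6 fits that leave out 1 array, Gpd2 passed in 5 (adjusted p 0.0135 to 0.0725), Sfxn1 in 3 (0.0288 to 0.102), Cps1 in 2 (0.0481 to 0.134), Cpt1a in 1 (0.0499 to 0.193) and Tomm6 in 0 (0.0746 to 0.165). The 5 partner genes called became 0 without siControl 2, 1 without siRetSat 2 or siRetSat 3, 2 without siRetSat 1, 3 without siControl 3 and 5 without siControl 1.

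**Figure D5:**
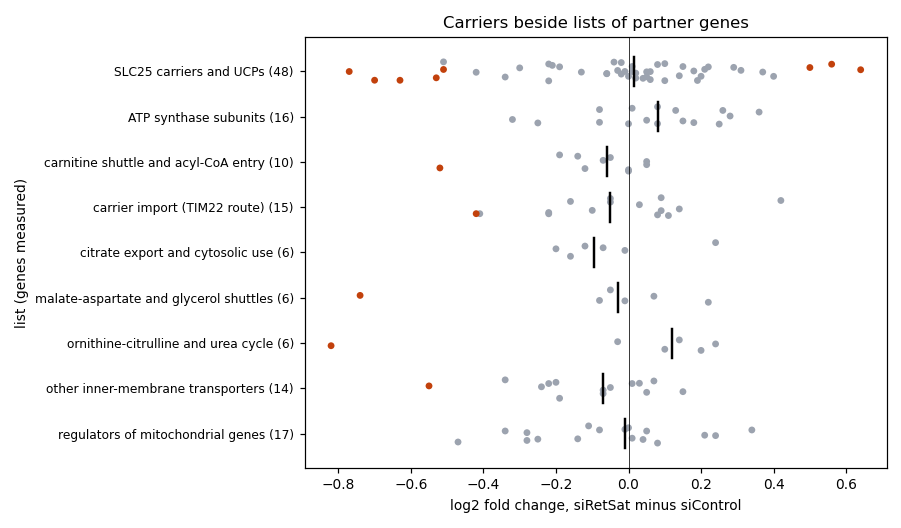
Log2 fold change (siRetSat minus siControl) of every measured gene of the SLC25 and UCP family and of 8 lists of genes that work beside them, with the number measured in brackets. Orange points passed an adjusted p of 0.05 and black ticks are medians. The family has calls on both sides of 0, while 5 of the other lists have 1 call each, all below 0.

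Markers of other liver cells moved in part with the comparison, and in bulk cells a change in the number of cells of a type and a change in RNA per cell cannot be told apart. Of 10 stellate cell and fibroblast markers, 4 of them dim, Acta2 fell by 2.40 on the log2 scale (adjusted p = 0.000205). Col1a1 had group means of 5.74 and 6.44 (adjusted p = 0.531). Its siRetSat arrays were at 6.11, 7.51 and 5.71, so the higher mean rests mostly on siRetSat 2. The median log2 fold change of the list was 0.10. Its summed level was 10.3 to 10.5 in siControl and 8.74 to 9.41 in siRetSat arrays. Acta2 was the only marker of that list that passed the test, and went from 10.09 to 7.68 in the group means. The other markers ranged from -0.06 to 0.70, the last being Col1a1. Of 12 macrophage markers, 8 of them dim, Cd14 rose by 0.59 (adjusted p = 0.0208) and Cd68 gave 0.40 (adjusted p = 0.0563). The log2 fold changes of that list ran from -0.12 to 0.59 with a median of 0.09. Its summed level was 11.3 to 11.4 in siControl and 11.7 to 11.8 in siRetSat arrays. Cd68 alone had group means of 11.14 and 11.54. Of 5 bile duct markers, Sox9 rose by 0.45 (adjusted p = 0.0324) and Krt19 was at 7.64 and 7.44. The log2 fold changes of the bile duct list ran from -0.21 to 0.45 with a median of -0.07. None of 8 endothelial markers was called by limma, with 1 at an unadjusted p under 0.05 and 0 by the methods' t-test after adjustment, and Lyve1 was at 5.88 and 6.04 and Cdh5 at 5.51 and 5.63. The part of these markers in the changes of the carriers was not tested.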

How the data were processed

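Total RNA of 6 hepatocyte samples (100 ng each) was run on Affymetrix Mouse Gene 1.0 ST arrays. From these the authors deposited log2 expression values per probe set, made with RMA and Partek 6.6 per the submitters' processing notes. RMA subtracts background, equalises the distributions of the arrays and summarises probes, so a shift of all genes would be removed. The probe annotation version and filters were not given in the sources used here. Array levels depend on the probes, so between related genes only the change of their within-array difference was compared.

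Of 35556 probe sets, 21789 had 1 symbol, 1621 several and 12146 none in the platform annotation. Symbols of 21698 were updated by Entrez number through RefSeq (GRCm38.p6) and 91 were kept. The brightest probe set per gene left 19938 genes, 999 of which had several. Array medians lay between 4.29 and 4.50. The 6 arrays were grouped by their labels, and siRetSat was compared with siControl (3 against 3) by limma (version 3.58.1, R 4.3.3), fitting lmFit and eBayes without covariates. P-values were adjusted by Benjamini-Hochberg across the 19938 genes and called under 0.05. The procedure was tested on simulated data, where 6.1% of its calls were false. It recovered 1.8% of changes of 1.25-fold, 34% of 1.5-fold and 86.6% of 2-fold. A carrier that did not pass may therefore still have changed by 1.5-fold or less. Single values were also given an exact permutation test. Alternatives changed the test, variance prior, replicate block, filter, normalization, centring, background, probe set, array weights and the arrays used.

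The members and the lists of roles, partner genes and cell type markers were chosen with earlier results of these data known. Named were Retsat, Slc25a10, Slc25a20, members past either p threshold, the 6 brightest, Ucp1 and Ucp3. Every other member was given by its value or within a range. For partner lists, called genes or otherwise the 2 smallest p were named, and for cell types the 2 brightest and any called.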

Additional observations from a re-analysis of the deposited data

How the results depend on the processing

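The count of called carriers, 8, fell to 1 with the methods' t-test (Slc25a46, with 0.983% of all genes called). Slc25a46 was at 8.62 in each siRetSat array, and its SE was 0.0416 in that test and 0.0832 in limma. The count fell to 3 with median centring (1.72%) and to 4 with background subtraction (2.23%), and rose to 16 with array weights (14.6%). It ran from 1 to 6 where a single array was left out, while the share of all genes called ran from 1.04% to 3.24%. The count was 1 without siControl 2 or siRetSat 2, 3 without siControl 3 or siRetSat 3, 5 without siControl 1 and 6 without siRetSat 1. In the fits that drop the pair numbered 2 or the pair numbered 3, limma called 0 carriers and 15 and 111 genes in all (0.0752% and 0.557%), against 6 carriers and 822 genes in the equally small fit without the pair numbered 1, with 13 carriers at an unadjusted p under 0.05 in each of the first pair of fits (7.02% and 9.29% of all genes). For each of these differences the cause was not tested. The count at the study's cutoffs stayed between 11 and 15. The median log2 fold change, 0.01, was -0.01 with dim genes left out, 0.00 with median centring, -0.01 with array weights, -0.01 without both arrays numbered 1, and 0.00 to 0.03 where a single array was left out. Slc25a3, at 0.02, turned to -0.04 without both arrays numbered 2 and ran from -0.02 to 0.06 where a single array was left out, below 0 without siControl 2 (-0.02) or siRetSat 3 (-0.01). Ucp1, at -0.03, ran from -0.06 to 0.02 where a single array was left out, above 0 without siRetSat 3, and turned to 0.02 without both arrays numbered 3. Neither gene was called in any setting. With the replicate number as a block (replicate block), 11 carriers and 1541 genes (7.73%) were called, adding Slc25a11, Slc25a15 and Slc25a28. Same-numbered arrays deviated together with correlations of 0.547, 0.0398 and 0.541, and 4 of 6 arrays correlated best with their own number. On the first component of the deviations, siControl and siRetSat scored -19 and -23.6 for number 1. The scores were 3.66 and 7.26 for number 2, and 15.4 and 16.4 for number 3. The labels give a replicate number and not what it shares, so the main fit left it out. Whether the numbers pair the samples was not tested. The variance trend also gave 11 (5.41% of all genes). Another quantile normalization and averaged probe sets gave 8 (4.62% and 3.55%), and the filter on dim genes 9 (8.06%). The partner genes called, 5, became 0 with the methods' t-test, 2 with background subtraction, 3 with median centring, 10 with the replicate block and 26 with array weights. Dim signal limits what can be said of 14 carriers.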
